A study of Mus musculus with 16 samples.

Results

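The mitochondrial respiratory chain is built from 5 protein complexes, and most of their subunits are encoded in the nucleus. The nuclear genes of these complexes were followed in KPC1199 cells as the features whose symbol begins with Nduf (a, b, c, s or v and a number), Sdha to Sdhd, Uqcr, Uqcc, Cox4 to Cox8 (with a, b or c) or Atp5. A gene was kept if it reached a mean of at least 1 CPM, read counts scaled to the library size, over the 12 libraries of the experiment with IFNγ. The pattern matched 110 of 56980 features by symbol, and 84 were kept. The 84 genes comprised 75 subunits and 9 other proteins, namely the assembly factors Sdhaf1, Sdhaf2, Sdhaf3, Sdhaf4, Uqcc1, Uqcc2 and Uqcc3, the supercomplex factor Cox7a2l, and Ndufb4c, a close copy of Ndufb4 whose reads cannot be assigned with certainty. Of the 26 under the minimum, 14 carried a pseudogene symbol, and 12 of the 26, pseudogenes or not, had no count in any library of that experiment. The genes closest to the minimum were Sdhaf1 (4.16 CPM), Sdhaf4 (4.70 CPM) and Sdhaf3 (4.76 CPM) above it, and Cox7a1 (0.297 CPM), Cox7c-ps1 (0.080 CPM) and Ndufa11b (0.038 CPM) below it. The pattern does not reach Cox4i1, Ndufab1, Cyc1 or Cycs, which are given separately.

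KPC1199 is a mouse pancreatic ductal adenocarcinoma line grown from a tumor of the KPC model, in which a Pdx-driven Cre acts in the pancreas and the mice carry a mutant Trp53. According to the study's methods, Sin3B, a scaffold of histone deacetylase complexes, was knocked out with a lentiviral CRISPR-Cas9 vector and the controls received a non-targeting guide. All groups therefore share the tumor alleles, the vector and a single line, and the RNA-seq used 1 Sin3B guide. The labels call sgCtrL cells WT and Sin3Bsg1 cells Sin3B Knockout, with 2 libraries of each in an untreated experiment and 3 of each, with or without IFNγ at 10 ng/ml for 24 h, in another.

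In oxidative phosphorylation, complex I (NADH dehydrogenase) and complex II (succinate dehydrogenase) pass electrons to ubiquinone, complex III passes them to cytochrome c, and complex IV (cytochrome c oxidase) reduces oxygen. Complexes I, III and IV pump protons across the inner membrane, and complex V (ATP synthase) uses that gradient to make ATP. Subunits encoded in the nucleus are made in the cytosol, imported, and joined with the few that mitochondrial DNA encodes, and their promoters are known for sites of NRF1, of ETS factors such as GABP, and of YY1.

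The libraries held 29683126 to 32311629 counts in the untreated experiment and 18128016 to 27056813 with and without IFNγ, and replicates differed by a biological coefficient of variation of 2.84% and 6.78%. Sin3b transcript was lower in Sin3Bsg1 in each setting, at 85.9 ± 3.66 CPM in sgCtrL and 35.3 ± 1.71 in Sin3Bsg1 untreated (SD, n = 2), at 92.4 ± 3.61 and 39.1 ± 0.411 without IFNγ, and at 82.8 ± 2.15 and 35.6 ± 2.04 with IFNγ (SD, n = 3). All 6 epithelial markers (Epcam, Cdh1, Krt7, Krt8, Krt18 and Krt19) reached 1 CPM, as did 2 or 3 of 5 fibroblast markers (Pdgfra up to 237 and Pdgfrb up to 35.6 CPM) and 1 of 4 acinar markers, at a summed level of 2.34 to 9.45 CPM over the 4, and none of 5 leukocyte or 3 endothelial markers did. Replicate 1 of sgCtrL + IFNγ and replicate 1 of Sin3Bsg1 + IFNγ stood apart for the genes described here. Their median log2 deviation from the mean of the 12 libraries was -0.26 and -0.16 over the 84 genes, whereas the other 4 libraries with IFNγ lay between 0.09 and 0.15 and the 6 without IFNγ between -0.03 and 0.05. The main results that rest on these libraries are given with and without them. In bulk RNA, a change in the share of a cell type cannot be told apart from a change of RNA per cell. The labels do not say whether replicates came from separate cultures, and the study's methods speak of independent experiments only in general, so p-values measure only the spread between these libraries, which may be technical.

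Of the 84 genes, 72 had an entry in the RefSeq table of promoters (build GRCm38.p6, 250 bases before to 50 after the start, 27025 genes), and motif letters were searched on both strands. The NRF1 core (GCGCA, any base, then GCGC) was present in 19 of the 72 promoters (26.4%) and in 4.78% of all promoters. The ETS motif CCGGAAG was present in 19 (26.4%) against 9.12%, and the YY1 core AAGATGGC in 10 (13.9%) against 2.88%. The interferon motifs were near their share over all promoters, with the ISRE letters (GAAA, any 2 bases, then GAAA) in 2 (2.78%) against 3.49% and the GAS letters TTCNNNGAA in 5 (6.94%) against 8.47%. Motif matches describe these letters and do not show binding.

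The 250 bases before the start are printed for 5 genes described below, as examples. Sdha, Ndufs3 and Cox6b1 were higher in untreated Sin3Bsg1. Ndufa9 was higher in Sin3Bsg1 in each comparison of genotype, and Sdhaf2 was higher with IFNγ in both genotypes. All 5 are read on the minus strand, at chr13:74350241-74350490, chr2:90904722-90904971, chr7:30626115-30626364, chr6:126849145-126849394 and chr19:10525210-10525459, in the order of the names. Capitals mark motif matches. Sdha holds 3 NRF1 cores that begin 98, 55 and 10 bases before the start, Ndufs3 an ISRE at 204 and an ETS motif at 27, Cox6b1 an ETS motif at 28, Ndufa9 an ISRE at 136 and Sdhaf2 an ETS motif at 158. The 50 bases after the start, searched but not printed, hold a further ETS motif in Ndufs3 (from base 2) and in Sdhaf2 (from base 17). In Ndufa9 they hold a YY1 core (from base 30). Ndufs3 and Ndufa9 are the 2 genes of the 72 with the ISRE letters.
Sdha: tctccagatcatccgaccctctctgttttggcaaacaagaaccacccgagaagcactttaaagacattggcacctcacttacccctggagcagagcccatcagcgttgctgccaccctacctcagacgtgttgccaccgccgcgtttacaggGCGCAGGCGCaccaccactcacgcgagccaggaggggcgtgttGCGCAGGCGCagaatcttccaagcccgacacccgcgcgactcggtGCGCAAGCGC
Ndufs3: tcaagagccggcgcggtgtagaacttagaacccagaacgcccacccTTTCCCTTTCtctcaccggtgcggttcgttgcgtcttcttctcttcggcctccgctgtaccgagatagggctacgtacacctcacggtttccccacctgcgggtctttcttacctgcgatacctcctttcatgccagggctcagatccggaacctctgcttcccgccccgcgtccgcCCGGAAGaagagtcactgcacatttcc
Cox6b1: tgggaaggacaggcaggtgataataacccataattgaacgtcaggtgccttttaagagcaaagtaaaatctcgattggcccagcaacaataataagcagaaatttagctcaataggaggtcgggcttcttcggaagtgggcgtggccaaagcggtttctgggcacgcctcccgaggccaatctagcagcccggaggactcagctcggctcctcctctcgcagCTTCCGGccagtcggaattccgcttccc
Ndufa9: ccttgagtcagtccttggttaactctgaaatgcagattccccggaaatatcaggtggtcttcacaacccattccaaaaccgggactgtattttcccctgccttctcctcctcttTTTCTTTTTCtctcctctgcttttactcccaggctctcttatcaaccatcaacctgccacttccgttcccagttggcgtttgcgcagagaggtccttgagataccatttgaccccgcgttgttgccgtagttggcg
Sdhaf2: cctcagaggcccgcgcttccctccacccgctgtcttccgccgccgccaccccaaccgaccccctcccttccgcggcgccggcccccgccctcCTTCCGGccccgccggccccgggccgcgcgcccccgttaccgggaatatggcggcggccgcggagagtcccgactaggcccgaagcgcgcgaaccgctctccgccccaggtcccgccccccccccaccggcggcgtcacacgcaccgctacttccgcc

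The genes were among the more abundant transcripts of these cells. Their median level in the experiment with IFNγ was 140 TPM (counts scaled by gene length and library size) against 16.7 TPM for all 14913 genes tested, and 81 of the 84 lay above that median. A total of 50 genes were in the highest decile, at 114 TPM or more. The median was lowest in complex I, with 96.6 TPM for the 36 subunits of complex I, 133 for the 4 of complex II, 207 for the 8 of complex III, 269 for the 10 of complex IV and 235 for the 17 of complex V. The ranges of the complexes overlapped widely. Within complex V, levels ran from 37.7 TPM for Atp5g2 to 1093 TPM for Atp5b, the catalytic beta subunit of ATP synthase, and the lowest subunit of complex I was Ndufb1 at 27.0 TPM.

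**Figure D1:**
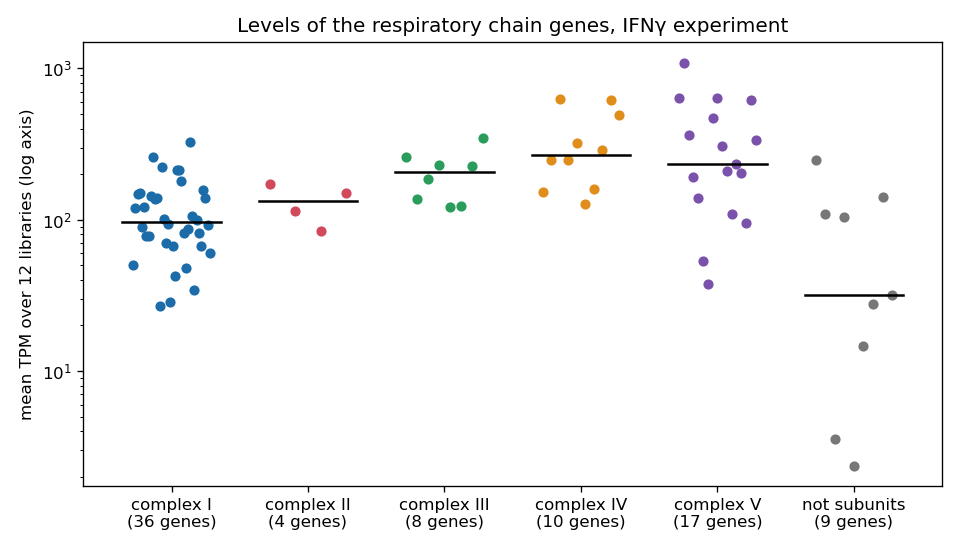
Level of each gene on a log axis in TPM, by complex; each point is the mean of a gene over the 12 libraries of the experiment with IFNγ and each line is the median of a class. Medians run from 96.6 TPM in complex I to 269 TPM in complex IV, and Atp5b is the highest point at 1093 TPM.

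For most subunits with isoforms, a single form made up nearly all of the transcript. Cox6a1 was at 627 ± 65.9 TPM (SD over 12 libraries) and its muscle isoform Cox6a2 did not pass 0.139 TPM in any library. Cox8a was at 614 ± 57.7 TPM while Cox8c had no count, and Ndufa4 was at 494 ± 65.4 TPM while Ndufa4l2 did not pass 0.290 TPM. The 3 genes for the c subunit of the ATP synthase ring, which encode the same mature protein, were all present, with Atp5g3 at 467 ± 46.2 TPM, Atp5g1 at 53.2 ± 2.95 TPM and Atp5g2 at 37.7 ± 6.89 TPM. Cox4i1, which the symbol pattern does not reach, was at 531 ± 45.5 TPM and its isoform Cox4i2 did not pass 0.115 TPM.

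In untreated cells, the question was how the transcriptome differed after loss of Sin3B, and the respiratory genes were mostly slightly higher in Sin3Bsg1. By edgeR's quasi-likelihood test with Benjamini-Hochberg adjustment over 14589 genes, 26 of the 84 were higher (31.0%) and 1 was lower, whereas 15.1% of all genes tested were higher and 16.0% lower. The 84 genes had a median log2 fold change of 0.086 (6.14%), and 68 were above 0, against a median of 0.0024 for all genes. Their summed level was 8278 and 8247 CPM in sgCtrL and 8711 and 8641 CPM in Sin3Bsg1. Both Sin3Bsg1 libraries were thus above both controls, at 8676 ± 49.5 against 8262 ± 21.9 CPM (SD, n = 2). Groups did not overlap for 56 genes that were higher and 7 that were lower, where 31.9% and 31.4% of all genes did not overlap in these directions. The called rises were small, from 5.07% to 24.1%.

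**Figure D2:**
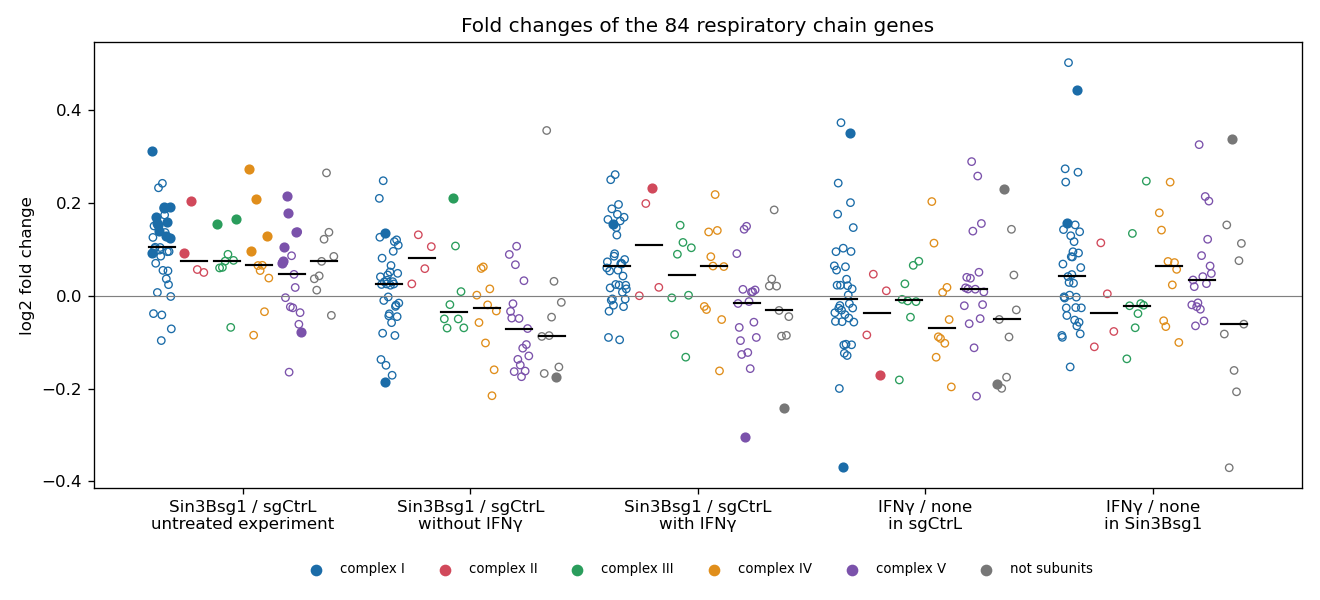
Log2 fold change of each of the 84 genes by complex in the comparisons of genotype and of IFNγ; filled points have an adjusted p under 0.05 (edgeR), open points do not, and lines are class medians. Filled points lie mostly above 0 in the untreated experiment, with 26 higher and 1 lower, and are few in the experiment with IFNγ.

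In complex I, the entry of electrons from NADH, 12 of 36 subunits were higher (33.3%) and none lower, and 31 were above 0. Of all genes, 15.1% were higher and 16.0% lower. Ndufv1, the flavoprotein subunit that binds NADH, was at 131 and 133 CPM in sgCtrL and 152 and 150 CPM in Sin3Bsg1. The groups were well apart, at a log2 fold change of 0.19 ± 0.030 (SE, adjusted p = 0.000117). Ndufa1, a small membrane subunit, showed the largest called rise of the 84, from 12.3 and 11.4 to 16.0 and 13.5 CPM (log2 0.31 ± 0.10, adjusted p = 0.031). That call was lost under 4 of 11 alternatives, with an adjusted p as high as 0.28. The core subunit Ndufs3 was at 58.0 and 63.3 CPM in sgCtrL and 70.1 and 65.2 CPM in Sin3Bsg1 (0.16 ± 0.051, adjusted p = 0.0251), a narrow gap. Ndufs1, the largest core subunit, was at 112 in both controls and at 122 and 123 CPM in Sin3Bsg1 (0.13 ± 0.032, adjusted p = 0.00563). The other complex I subunits called higher were Ndufa6, Ndufa7, Ndufa9, Ndufa10, Ndufb8, Ndufb9, Ndufb10 and Ndufs8, between 0.093 and 0.19.

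Complex II, which oxidizes succinate and is encoded only in the nucleus, had 2 of 4 subunits called higher, where 15.1% of all genes were. A count over 4 subunits is small. Sdha, the flavoprotein subunit, was at 235 and 234 CPM in sgCtrL and 249 and 250 CPM in Sin3Bsg1. The difference of 6.58% was small and far larger than the spread within the pairs (log2 0.092 ± 0.024, adjusted p = 0.00821), and its call held in all 11 alternatives. Sdhb, the iron-sulfur subunit, was at 61.2 and 55.4 against 68.2 and 66.1 CPM (0.20 ± 0.049, adjusted p = 0.00448), and leaving out replicate 2 of sgCtrL raised its adjusted p to 0.0853. The membrane anchors had smaller differences that were not called, with Sdhc at 141 and 145 against 148 and 149 CPM (0.061) and Sdhd at 89.7 and 89.1 against 92.9 and 92.2 CPM (0.050).

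In complex III, 2 of 8 subunits were called higher, both small subunits. Uqcrq was at 77.1 and 75.9 CPM in sgCtrL and 86.3 and 85.3 CPM in Sin3Bsg1 (log2 0.17 ± 0.037, adjusted p = 0.00268), and Uqcr10 at 74.8 and 74.4 against 85.9 and 79.9 CPM (0.15 ± 0.042, adjusted p = 0.0101). The core protein Uqcrc1 was at 197 and 191 against 208 and 200 CPM and was not called (0.071, adjusted p = 0.063). In complex IV, 4 of 10 were called higher (40.0%, against 15.1% of all genes), also a small count. Cox5a, a subunit on the matrix side of the enzyme, was at 50.6 and 52.1 CPM in sgCtrL and 63.8 and 60.3 CPM in Sin3Bsg1, a rise of 20.9% (0.27 ± 0.046, adjusted p = 0.000244). Cox6b1 was at 82.8 and 86.9 against 98.4 and 97.7 CPM (0.21 ± 0.037, adjusted p = 0.000403). For both genes the libraries of the genotypes were clearly separated. Cox8a and Cox5b were also higher (0.13 and 0.096), while Cox6a1 was at 238 and 234 against 231 and 214 CPM and was not called (-0.083, adjusted p = 0.0592).

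In complex V, 6 of 17 subunits were called higher and 1 lower (35.3% and 5.88%, against 15.1% and 16.0% of all genes). Atp5e, the epsilon subunit of the central stalk, was at 43.4 and 43.6 CPM in sgCtrL and 51.6 and 49.5 CPM in Sin3Bsg1 (log2 0.22 ± 0.049, adjusted p = 0.00275). Atp5g1, one of the c subunit genes, was at 135 and 137 against 151 and 157 CPM (0.18 ± 0.031, adjusted p = 0.00031), while Atp5g3 and Atp5g2 were not called. The abundant catalytic subunits moved little and tightly, with Atp5b at 950 and 949 against 1010 and 991 CPM (0.076 ± 0.017, adjusted p = 0.00282) and Atp5a1 at 773 in both controls against 810 and 814 CPM. Atp5c1 and Atp5l were the other subunits called higher. Atp5pb, the b subunit of the peripheral stalk, was the single gene called lower, at 261 and 270 CPM in sgCtrL and 252 and 251 CPM in Sin3Bsg1 (-0.077 ± 0.025, adjusted p = 0.0282), a call lost under 3 of 11 alternatives. The calls of Cox5a, Atp5e, Atp5g1 and Atp5b held in every alternative. None of the 9 genes that are not subunits was called, although 8 were above 0.

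Other features moved with genotype in the same libraries. The summed epithelial markers were at 4597 to 4621 CPM in sgCtrL and 6191 to 6248 CPM in Sin3Bsg1, and 5 fibroblast markers, 2 of them at 1 CPM or more, at 99.9 to 100.0 and 30.1 to 33.1 CPM. Their part in the result was not tested. Of the 81 cytosolic ribosomal protein genes tested, 27 were higher and 4 lower (33.3% and 4.94%), with a median log2 fold change of 0.029. Of 78 mitochondrial ribosomal protein genes, 9 were higher and 3 lower (11.5% and 3.85%), where 15.1% and 16.0% of all genes were. Both short and long respiratory genes were called, 14 of the 54 genes under 1000 bases and 12 of the 30 longer genes. With the trend of fold change on length taken out 21 genes were higher and 2 lower (15.3% and 16.0% of all genes) with a median of 0.065. Among the 22 genes called higher that had a promoter entry, 7 held the ETS motif (31.8%, against 26.4% of the 72 and 9.12% of all promoters), 2 the NRF1 core (9.09%, against 26.4% and 4.78%), 2 the YY1 core (9.09%, against 13.9% and 2.88%), 2 the ISRE letters (9.09%, against 2.78% and 3.49%) and 0 the GAS letters (against 6.94% and 8.47%). These are small counts without a test.

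In the experiment with IFNγ, the same genotypes gave few calls in these genes. Without IFNγ, 2 of the 84 were higher in Sin3Bsg1 and 2 lower by edgeR, where 7.89% and 9.33% of all 14913 genes were called in these directions, and the median log2 fold change was -0.016 with 38 genes above 0. Fitted on the 6 libraries without IFNγ alone, 8 were higher and 8 lower, where 13.5% and 14.6% of all genes were. Of the 26 genes higher in the untreated experiment, 16 were above 0 here, with a median of 0.028. The difference between the experiments was not tested, since the tables were fitted separately. With IFNγ, 2 genes were higher and 2 lower, against 8.62% and 7.90% of all genes, and the median was 0.022 with all libraries and -0.0076 without replicate 1 of each IFNγ group, where 5 were higher and 2 lower (9.31% and 9.02% of all genes). The 5 were Sdhc, Uqcrc1, Ndufa5, Ndufa9 and Atp5a1, and the 2 were Uqcc1 and Atp5g3. Summed epithelial markers also differed, at 2988 to 3026 CPM in sgCtrL and 3213 to 3314 CPM in Sin3Bsg1 without IFNγ and at 3163 to 3690 and 4178 to 4429 CPM with it. The summed fibroblast markers, 3 of 5 at 1 CPM or more in at least 1 library, were at 261 to 268 and 224 to 234 CPM without and at 184 to 186 and 160 to 172 CPM with IFNγ. That lower sum came from Pdgfra, at a mean of 233 against 194 CPM without and 165 against 142 CPM with IFNγ. Pdgfrb was higher in Sin3Bsg1, at 30.6 against 34.9 and 20.1 against 24.2 CPM. The part of these markers in the result was not tested.

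Ndufa9, a peripheral subunit of complex I, was the one gene called in the same direction in all 3 comparisons of genotype. In the untreated experiment it was at 103 and 94.3 CPM in sgCtrL and 110 in both Sin3Bsg1 libraries (log2 0.15 ± 0.040, adjusted p = 0.0086). Without IFNγ it was at 85.6, 89.2 and 90.3 CPM in sgCtrL and 95.6, 101 and 94.7 CPM in Sin3Bsg1 (0.14 ± 0.045, adjusted p = 0.0479), and with IFNγ at 90.3, 88.2 and 90.9 against 97.2, 102 and 101 CPM (0.15 ± 0.045, adjusted p = 0.0254, and 0.17 without the replicate 1 libraries). The genotypes did not overlap in any of the 3, at rises of 11.1%, 9.90% and 11.3%. The calls were nevertheless near the threshold, and 8 of 14 alternatives without IFNγ, 5 of 16 with IFNγ and 1 of 11 untreated lost them.

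Uqcc1, an assembly factor for cytochrome b of complex III, was lower in Sin3Bsg1 in this experiment. Without IFNγ it was at 35.2, 35.7 and 34.1 CPM in sgCtrL and 31.9, 30.1 and 31.1 CPM in Sin3Bsg1 (log2 -0.17 ± 0.057, adjusted p = 0.0465). With IFNγ it was at 39.1, 39.1 and 38.0 against 30.8, 34.7 and 32.7 CPM (-0.24 ± 0.056, adjusted p = 0.0069, and -0.20 without the replicate 1 libraries). No Sin3Bsg1 library reached a control library in either condition. The call with IFNγ held in all 16 alternatives and that without IFNγ was lost in 11 of 14. In the untreated experiment Uqcc1 was at 37.8 and 37.6 CPM in sgCtrL and 43.4 and 39.4 CPM in Sin3Bsg1 and was not called (0.14, adjusted p = 0.0895).

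Sdhc, a membrane anchor of complex II, differed between genotypes with IFNγ. It was at 113, 113 and 108 CPM in sgCtrL and 127, 126 and 139 CPM in Sin3Bsg1 with IFNγ (log2 0.23 ± 0.049, adjusted p = 0.00337), and at 126, 128 and 121 against 130, 133 and 126 CPM without it (0.059, adjusted p = 0.473). The treated sgCtrL libraries were thus the lowest, and the 3 other groups overlapped. The call with IFNγ held in all 16 alternatives, at 0.26 without the replicate 1 libraries. Atp5g3, the most abundant c subunit gene, was lower in Sin3Bsg1 with IFNγ, at 176, 184 and 174 CPM in sgCtrL and 119, 159 and 154 CPM in Sin3Bsg1 (-0.31 ± 0.081, adjusted p = 0.0158), and the lowest value was that of replicate 1. Without the replicate 1 libraries the log2 fold change was -0.20 (adjusted p = 0.00561). The call was lost only when the fit used the 6 libraries of the contrast (adjusted p = 0.0732).

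The other genes called without IFNγ were Uqcrc1 and Ndufa8. Uqcrc1, a core protein of complex III, was at 173, 165 and 160 CPM in sgCtrL and 190, 206 and 180 CPM in Sin3Bsg1 (log2 0.21 ± 0.069, adjusted p = 0.0467). Ndufa8, a complex I subunit, was at 58.8, 60.4 and 52 against 50.3, 51.2 and 49.4 CPM (-0.18 ± 0.056, adjusted p = 0.0309). The groups did not overlap for either gene, and the calls were lost in 5 and 8 of 14 alternatives. With IFNγ Ndufa8 was level between genotypes, at 56.8, 55.9 and 56.2 against 54.6, 57.2 and 56.4 CPM (-0.0066, and 0.0094 without the replicate 1 libraries).

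**Figure D3:**
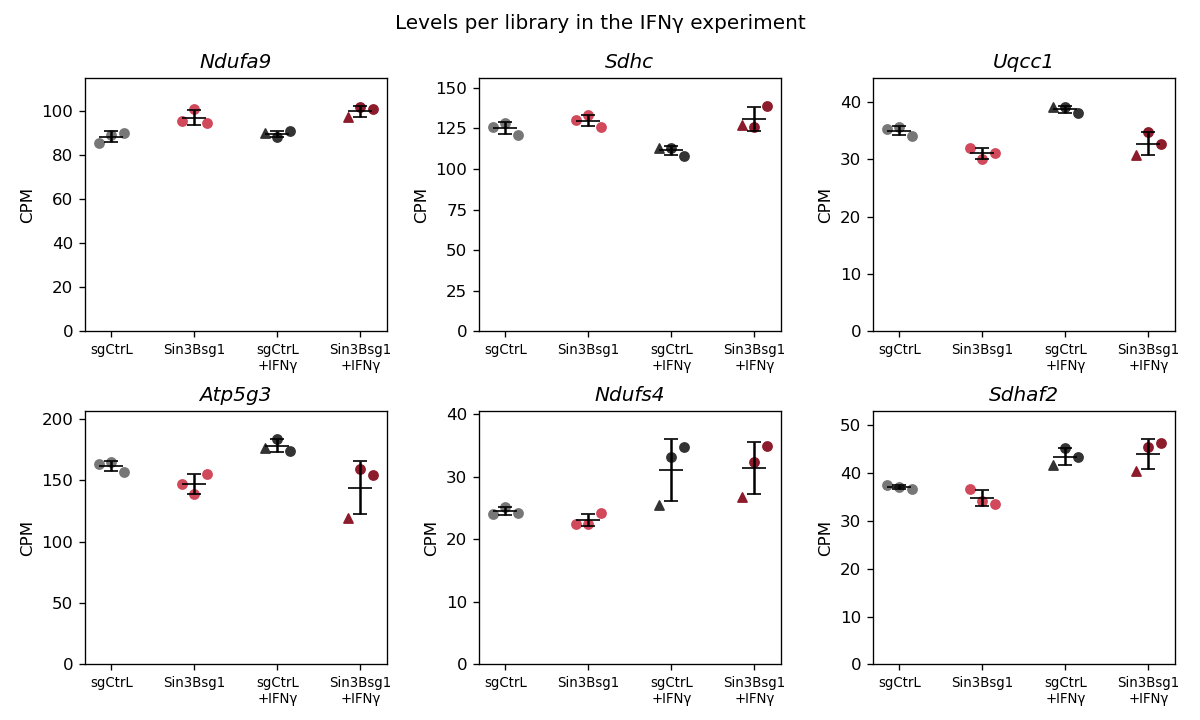
CPM per library of Ndufa9, Sdhc, Uqcc1, Atp5g3, Ndufs4 and Sdhaf2 in the 4 groups of the experiment with IFNγ; points are libraries, triangles are replicate 1 of the groups with IFNγ, and bars are mean ± SD (n = 3). Ndufa9 is higher and Uqcc1 lower in Sin3Bsg1 in both conditions, and Sdhaf2 is higher with IFNγ in both genotypes.

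IFNγ, the cytokine that induces antigen presentation and chemokine genes, was given to ask how each genotype responds, and both responses are measured against the untreated libraries of that genotype. With all libraries few respiratory genes were called. In sgCtrL 2 were higher and 3 lower with IFNγ by edgeR, where 15.7% and 14.5% of all genes were, and in Sin3Bsg1 3 were higher and none lower, where 16.1% and 12.3% were. Median log2 fold changes were -0.0092 and 0.028. The summed epithelial markers given above were higher and the summed fibroblast markers lower with IFNγ in both genotypes, and their part was not tested. The epithelial sum rose through Krt8 (mean 1307 to 1400 CPM in sgCtrL and 1345 to 1766 in Sin3Bsg1) and Krt18 (684 to 1126 and 771 to 1479). Mean Epcam, Cdh1, Krt7 and Krt19 were lower with IFNγ in both genotypes, with Krt19 going from 898 to 739 and from 927 to 827 CPM.

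Sdhaf2, the factor that attaches FAD to Sdha, was higher with IFNγ in both genotypes. In sgCtrL it was at 37.4, 37.0 and 36.6 CPM without and 41.6, 45.1 and 43.3 CPM with IFNγ (log2 0.23 ± 0.062, adjusted p = 0.01). In Sin3Bsg1 it was at 36.7, 34.2 and 33.5 CPM without and 40.4, 45.3 and 46.3 CPM with IFNγ (0.34 ± 0.061, adjusted p = 0.000528). Every treated library exceeded every untreated one of its genotype, both calls held in all 16 alternatives, and without the replicate 1 libraries the log2 fold changes were 0.26 and 0.37. Ndufs4, an accessory subunit of the NADH-oxidizing arm of complex I, was at 24.0, 25.2 and 24.2 CPM without and 25.4, 33.2 and 34.7 CPM with IFNγ in sgCtrL (0.35 ± 0.11, adjusted p = 0.0228). In Sin3Bsg1 it was at 22.5, 22.5 and 24.2 CPM without and 26.8, 32.4 and 34.9 CPM with IFNγ (0.44 ± 0.11, adjusted p = 0.0051). Replicate 1 was the lowest treated library in both genotypes, though above the untreated ones, and without it the log2 fold changes were 0.47 and 0.52. The call was lost in 5 of 16 alternatives in sgCtrL (adjusted p up to 0.0995) and in 1 of 16 in Sin3Bsg1.

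The genes called lower with IFNγ in sgCtrL were Ndufb2, Sdhc and Cox7a2l. Ndufb2, a small complex I subunit, was at 16.7, 16.0 and 15.5 CPM without and 9.69, 13.6 and 13.8 CPM with IFNγ (log2 -0.37 ± 0.11, adjusted p = 0.0186). Sdhc, with the values given above, had a log2 fold change of -0.17 ± 0.049 (adjusted p = 0.0152). Cox7a2l, which joins complexes III and IV into supercomplexes, was at 142, 144 and 141 CPM without and 114, 131 and 128 CPM with IFNγ (-0.19 ± 0.069, adjusted p = 0.0481). All 3 stayed lower without the replicate 1 libraries, at -0.23, -0.18 and -0.13, but the calls were lost in 2, 3 and 5 of 16 alternatives, with an adjusted p of Cox7a2l up to 0.125. In Sin3Bsg1 none of them was called, and Ndufa8 was called higher there (0.16 ± 0.055, adjusted p = 0.044; 0.15 and 0.053 without the replicate 1 libraries), a call lost in 13 of 16 alternatives.

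No gene of the 84 was called in the interaction of genotype and IFNγ by edgeR or by DESeq2, and 2 had an unadjusted p under 0.05, Sdhc (log2 0.17, adjusted p = 0.847) and Ndufa8 (0.18, adjusted p = 0.907). Of all genes, 0.114% were called and 5.43% had an unadjusted p under 0.05. The median interaction was 0.042, and -0.0010 without the replicate 1 libraries.

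**Figure D4:**
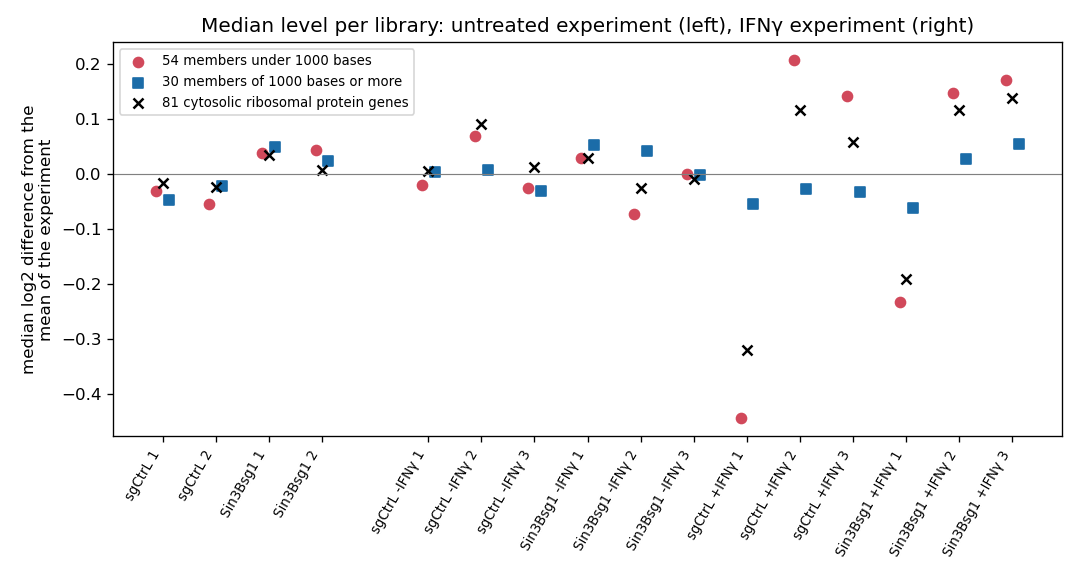
Median log2 deviation of each of the 16 libraries from the mean of its experiment, for respiratory genes under 1000 bases (circles), respiratory genes of 1000 bases or more (squares) and cytosolic ribosomal protein genes (crosses). Replicate 1 of both groups with IFNγ is low for circles and crosses, at -0.45 and -0.32 in sgCtrL and -0.23 and -0.19 in Sin3Bsg1.

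The low values of the replicate 1 libraries were found mostly in short genes. For the 54 respiratory genes under 1000 bases the median deviation was -0.45 in replicate 1 of sgCtrL + IFNγ and -0.23 in replicate 1 of Sin3Bsg1 + IFNγ, and for the 30 longer genes it was -0.055 and -0.062. The other 4 libraries with IFNγ were at 0.14 to 0.21 for the short genes. Cytosolic ribosomal protein genes, most of which are short, were at -0.32 and -0.19 in the replicate 1 libraries. Gene length and library therefore moved together with the response of these genes, and their part in it was not tested.

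Without both replicate 1 libraries, which were left out because the respiratory genes stood low in them, many more genes were called. Leaving libraries out for that reason favors higher levels of these genes in the treated groups. The counts of genes called higher below are therefore not independent of that choice. In sgCtrL 32 of the 84 were higher and 4 lower with IFNγ, against 17.6% and 16.3% of all genes, with a median log2 fold change of 0.076. In Sin3Bsg1 24 were higher and 1 lower, against 17.1% and 17.4%, with a median of 0.092. Most were short genes, with 28 of 54 in sgCtrL and 23 of 54 in Sin3Bsg1 called higher at medians of 0.17 and 0.14, whereas of the 30 longer genes 4 and 1 were higher. The shares of all genes given here are over genes of all lengths. The trend of log2 deviation on length over all well-counted genes was also above 0 at 500 bases in the remaining treated libraries. It was at 0.162 and 0.104 in sgCtrL and 0.124 and 0.14 in Sin3Bsg1. With the length trend also taken out, 12 genes were higher and 12 lower in sgCtrL (16.7% and 17.2% of all genes) and 9 higher and 7 lower in Sin3Bsg1 (16.8% and 17.2%), with medians of 0.0042 and 0.0034. With the trend taken out of all libraries, 3 were higher and 9 lower in sgCtrL (15.8% and 16.2%) and 3 higher and 6 lower in Sin3Bsg1 (15.1% and 15.5%). The count of respiratory genes called with IFNγ thus depended on both choices.

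**Figure D5:**
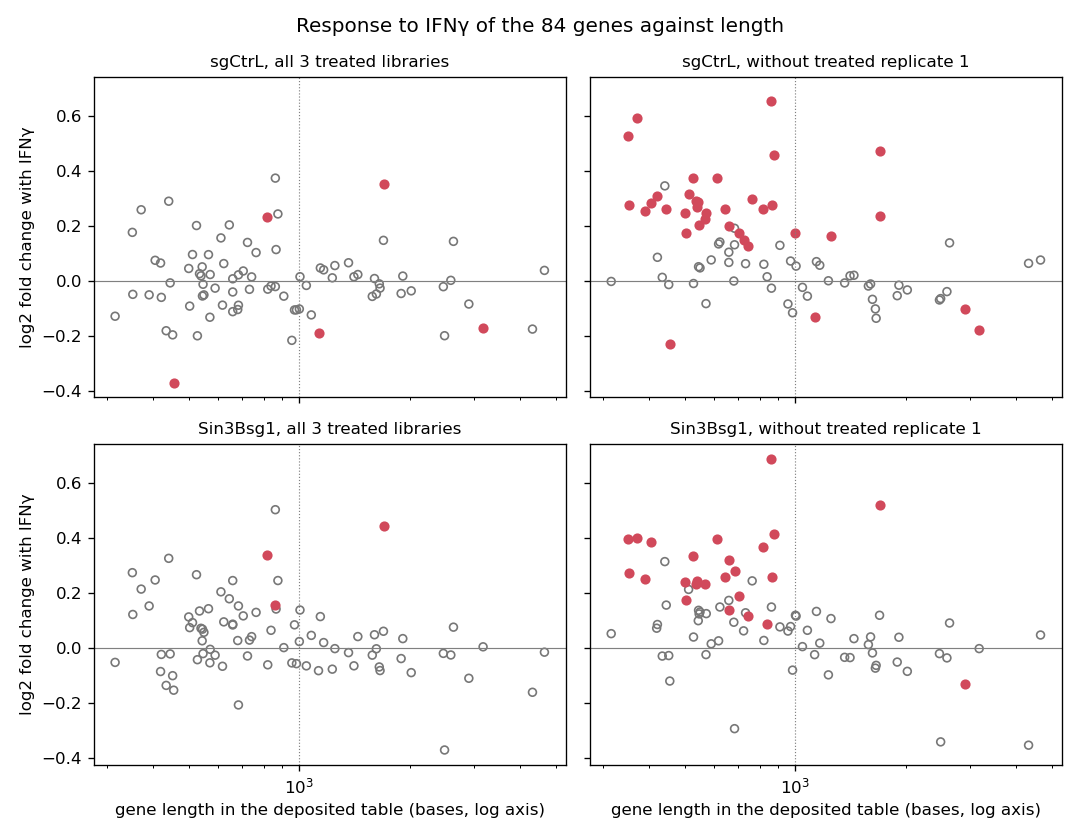
Log2 fold change with IFNγ of each of the 84 genes against gene length in bases, in sgCtrL (top) and Sin3Bsg1 (bottom), with all 3 treated libraries (left) and without treated replicate 1 (right); filled points were called by edgeR and the dotted line marks 1000 bases. Without replicate 1, called points gather above 0 among the short genes, 28 of 54 in sgCtrL and 23 of 54 in Sin3Bsg1. Replicate 1 was left out because these genes stood low in it, a choice that favors higher calls.

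A few genes were called with IFNγ in both genotypes without the replicate 1 libraries, and also with the length trend taken out. They are named after their values were seen, and leaving out replicate 1 favors calls of higher genes. Ndufb1, a small complex I subunit, was at 8.95, 10.1 and 10.4 CPM without and 6.91, 15.5 and 15.4 CPM with IFNγ in sgCtrL, and at 8.29, 7.48 and 10.7 against 8.56, 14.6 and 14.4 CPM in Sin3Bsg1. Replicate 1 was level with the untreated libraries or below them and the other 2 were clearly above. Without replicate 1 its log2 fold changes were 0.66 and 0.69 and, with the length trend also taken out, 0.57 and 0.60, while with all libraries they were 0.37 and 0.50 and not called. Ndufa5, a complex I subunit, was at 26.7, 27.6 and 26.3 against 21.3, 39.4 and 34.2 CPM in sgCtrL and at 32.5, 31.3 and 32 against 26.7, 44.9 and 41.9 CPM in Sin3Bsg1. It showed the same split, with replicate 1 below and the others above every untreated library of the genotype. Sdha, a long gene, was the reverse, at 237, 241 and 236 against 231, 227 and 215 CPM in sgCtrL and at 245, 247 and 235 against 222, 227 and 224 CPM in Sin3Bsg1. All treated libraries were lower. Sdha was called without replicate 1 (-0.10 and -0.13, adjusted p = 0.0365 and 0.00878), and not with all libraries and no correction for length (-0.084 and -0.11, adjusted p = 0.15 and 0.0617).

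Over all comparisons, 36 of the 84 genes were called in at least 1 and 48 in none, where 57.9% of the 13848 genes tested in both experiments were called in at least 1, and no respiratory gene was called in opposite directions in 2 comparisons of genotype. Among the genes that complete the chain, Ndufab1, Cyc1 and Cox4i1 were called in none. Cycs, which encodes cytochrome c, was higher with IFNγ, from 88.6 ± 6.08 to 111 ± 3.64 CPM in sgCtrL (log2 0.33, adjusted p = 0.000359) and from 84 ± 2.73 to 120 ± 6.16 CPM in Sin3Bsg1 (0.51, adjusted p = 3.42e-06; SD, n = 3), and without the replicate 1 libraries the log2 fold changes were 0.34 and 0.46. Of the 13 subunits that mitochondrial DNA encodes, 1 was higher and 7 lower in untreated Sin3Bsg1 with a median of -0.16. These were 7.69% and 53.8%, against 15.1% and 16.0% of all genes. Without IFNγ 1 was higher and 1 lower (7.69% each, against 7.89% and 9.33%). With IFNγ 0 were higher and 3 lower (23.1%, against 8.62% and 7.90% of all genes). Without the replicate 1 libraries these were 1 and 7, against 9.31% and 9.02% of all genes. The complex I subunit mt-Nd1 was lower in Sin3Bsg1 each time, from 3733 ± 49.2 to 3145 ± 47.8 CPM untreated (n = 2), from 3761 ± 135 to 3289 ± 60.8 CPM without IFNγ and from 3851 ± 190 to 3087 ± 96.3 CPM with IFNγ (n = 3), where the log2 fold change was -0.32 with all libraries and -0.28 without the replicate 1 libraries. Among 46 further assembly factors, 3 were higher and 1 lower untreated, 1 and 1 without IFNγ and 1 and 2 with IFNγ (1 and 1 without the replicate 1 libraries). As shares these were 6.52% and 2.17% untreated, 2.17% and 2.17% without IFNγ and 2.17% and 4.35% with IFNγ, below the shares of all genes just given.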

How the data were processed

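The 16 libraries are RNA-seq of KPC1199 cells. The authors deposited an estimated count of reads per gene and library, not normalized, in a table for each experiment (7.86 to 14.5% of values were not whole), together with group means that were not used. The labels list mm39, fastp, HISAT2, StringTie and DESeq2. The study's methods name mm9, HISAT2 and counting of uniquely mapped reads with featureCounts, so the build is uncertain and no coordinate was taken from the tables. Versions, annotation and strand setting are not given in the sources used here. Control columns bear a lacZ name and were taken as sgCtrL, the only other guide.

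Counts were rounded, and 324 assembled loci without a gene name (0.615 to 0.677% of untreated counts) were left out. Each table was fitted with edgeR 4.0.16 in R 4.3.3 (TMM, filterByExpr, quasi-likelihood, two-sided, Benjamini-Hochberg over all genes tested, threshold 0.05), the untreated one on 4 libraries and the IFNγ one on 12 with a mean per group. All 84 genes passed the filter in both. TPM used the deposited gene lengths. Fits were tested on simulated data, with changes planted in well-counted genes that were larger than most of those reported here. That test therefore does not cover changes as small as most called here. Alternatives were DESeq2 1.42.0 (with its size factors), no filter, a replicate block, a gene length trend taken out, the libraries of a contrast alone, and leaving out each library. Leaving out both replicate 1 libraries with IFNγ was added after seeing the data.

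The genes and lists were chosen with earlier results of these data known. Genes named with full values were the highest by CPM in each complex, the Sdh genes, the 3 largest called rises and falls of a comparison (mean over 5 CPM), and those called in all comparisons of genotype. Others named were chosen after their values were seen, and 1 gene is counted but not reported by name here. Motifs were searched in RefSeq promoters (GRCm38.p6), the first start of a gene, with Python 3.11.15.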

Additional observations from a re-analysis of the deposited data

Results flagged for a closer look

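A total of 5 respiratory genes had Sin3Bsg1 libraries entirely above the controls in the untreated experiment and entirely below them in the experiment with IFNγ. Of the 13848 genes tested in both experiments, 4.31% did the same, so 5 of 84 (5.95%) is near the background. The difference between the experiments was not tested for any of them. Ndufc1, a small complex I subunit, had a log2 fold change of 0.17 untreated and -0.17 without IFNγ. Uqcc1 had 0.14 untreated, -0.17 without IFNγ and -0.24 with IFNγ. Atp5j2, a membrane subunit of ATP synthase, had 0.046 untreated and -0.17 without IFNγ, the supercomplex factor Cox7a2l 0.037 and -0.088, and Atp5c1, the gamma subunit of ATP synthase, 0.10 and -0.048. Of these values, Atp5c1 untreated and Uqcc1 without and with IFNγ were called by edgeR.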

How the results depend on the processing

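Of 212 alternative counts and medians of the 84 genes, 174 stayed within 1.5 times the count or 1 SD of the median. Of 25 calls followed through the alternatives, 9 held under every one, 16 were lost under at least 1 and none changed sign. The 25 do not cover every call given with values above. Untreated calls of Ndufv1, Ndufs1, Ndufs3, Uqcrq, Uqcr10, Cox6b1 and Atp5a1 are not among them. The untreated median was 0.065 with the length trend taken out and 0.064 with the block added. Calls without IFNγ numbered 4, and 2 with the replicate block and 16 with the 6 libraries alone. Over all genes, 1142 of 14913 were higher and 1369 lower with the block. With the 6 libraries alone, 13.5% of all genes were higher and 14.6% lower. With IFNγ, the 4 genotype calls became 8 with no filter, 7 with the length trend taken out, with or without the block, 7 without both replicate 1 libraries, 9 with that and the length trend taken out, and 2 with the 6 libraries alone. Over all genes, 1380 of 27904 were higher and 1265 lower with no filter. With the length trend taken out they were 1512 and 1445 of 14913, and with the block added 1485 and 1449. Without both replicate 1 libraries they were 1419 and 1374 of 15241, and with the trend also taken out 1507 and 1387. With the 6 libraries alone they were 759 and 741 of 14189. The 5 IFNγ calls in sgCtrL became 13 with no filter, 12 with the length trend taken out, 11 with the block added, 36 without both replicate 1 libraries, 24 with both changes, 3 with the 6 libraries alone and 3 over subunits alone. The 3 in Sin3Bsg1 became 7, 9, 10, 25, 16 and 7 under the first 6 of these. Over all genes with no filter, 2296 of 27904 were higher and 2238 lower in sgCtrL, and 2285 and 1977 in Sin3Bsg1. With the length trend taken out and the block added they were 2350 and 2437 of 14913, and 2238 and 2314. With the 6 libraries alone they were 1836 and 1709 of 14089, and 2732 and 2193 of 14337. The shares of all genes under the other changes are given above. Leaving out 1 library gave 19 to 27 calls untreated (median 0.077 to 0.087), 0 to 2 without IFNγ (-0.035 to 0.022), 3 to 8 with IFNγ (-0.069 to 0.12; 8 without sgCtrL + IFNγ replicate 1), 1 to 14 and 2 to 3 for IFNγ in sgCtrL (-0.092 to 0.064) and Sin3Bsg1 (-0.048 to 0.092), and 0 for the interaction (-0.052 to 0.15). The 14 were without sgCtrL + IFNγ replicate 1, where 2282 of all 15348 genes were higher and 2444 lower. For the 8, 1765 of the 15348 were higher and 1180 lower. Over all genes, leaving out 1 library gave 1783 to 2069 higher and 1867 to 2152 lower untreated. The ranges were 861 to 987 and 976 to 1079 without IFNγ and 931 to 1765 and 851 to 1180 with IFNγ. They were 1875 to 2282 and 1664 to 2444 for IFNγ in sgCtrL, and 1727 to 2058 and 1434 to 1905 in Sin3Bsg1. The count without IFNγ fell whichever of its 6 libraries was left out, and that for IFNγ in sgCtrL moved by over 1.5 times for each library of the contrast but sgCtrL + IFNγ replicate 2. Signs were reversed untreated for mt-Co2 (-0.20 without Sin3Bsg1 replicate 2, up to 0.52 without sgCtrL replicate 1) and mt-Co3 (0.23 without sgCtrL replicate 2, down to -0.28 without sgCtrL replicate 1), and for mt-Co1 (-0.054) and mt-Nd1 (-0.081) with IFNγ in sgCtrL with the length trend taken out and both replicate 1 libraries left out. The cause was not tested. Replicate numbers did not pair the libraries throughout (correlation of same-numbered deviations -0.12 to 0.25, over 0.1 in 5 of 18 pairs, and 0.076 untreated). Pairs with unlike numbers ran from -0.27 to 0.19 in the experiment with IFNγ. Between the treated groups, replicates 1 (0.23) and 2 (0.25) did deviate together, and replicates 3 hardly (0.026). The crossed pairs of treated replicates 1 and 2 were at -0.21 and -0.27. The replicate block gave 31 calls untreated, 2 without IFNγ, 4 with IFNγ, 5 and 3 for IFNγ, and 0 for the interaction. Over all genes, the block gave 2284 higher and 2391 lower of 14589 untreated, and 1243 and 1145 of 14913 with IFNγ. For the response to IFNγ these were 2273 and 2127 in sgCtrL, and 2407 and 1800 in Sin3Bsg1.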

Other observations

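Regulators of mitochondrial genes, a list of 16, had 5 members higher and 2 lower in untreated Sin3Bsg1, 2 and 2 without IFNγ and 2 and 1 with IFNγ, the last also without the replicate 1 libraries. As shares these were 31.2% and 12.5%, 12.5% and 12.5%, and 12.5% and 6.25%, where 15.1% and 16.0%, 7.89% and 9.33%, and 8.62% and 7.90% of all genes were higher and lower. Ppargc1a, which encodes the coactivator PGC-1 alpha, was higher in Sin3Bsg1 in each, from 4.8 ± 0.521 to 8.98 ± 0.160 CPM untreated (SD, n = 2; log2 0.90, edgeR adjusted p = 7.92e-05), from 11.3 ± 0.731 to 18.7 ± 1.45 CPM without IFNγ (SD, n = 3; 0.73, adjusted p = 3.4e-05 by edgeR) and from 8.49 ± 0.610 to 14.6 ± 1.13 CPM with IFNγ (SD, n = 3; 0.78, adjusted p = 2.68e-05 by edgeR). It was lower with IFNγ in both genotypes (-0.40 and -0.35). Without the replicate 1 libraries these 3 values with IFNγ were 0.66, -0.35 and -0.44. Esrra, a nuclear receptor that acts with it, was higher in untreated Sin3Bsg1 (0.42, adjusted p = 0.0003) and not called without or with IFNγ (0.12 and 0.13). Gabpa, the ETS subunit of GABP, was lower in Sin3Bsg1 in each comparison (-0.11, -0.22 and -0.17, the last -0.16 without the replicate 1 libraries), and the untreated call was lost under 3 of 11 alternatives and that with IFNγ under 4 of 16. Nrf1 and Tfam were called in none.

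Mitochondrial ribosomal protein genes, which serve translation of the subunits that mitochondrial DNA encodes, were higher with IFNγ in 13 of 78 in sgCtrL and 16 of 78 in Sin3Bsg1, with 1 lower in each (15.7% and 16.1% of all genes were higher). Without both replicate 1 libraries these counts were 24 and 33 higher, where 17.6% and 17.1% of all genes were. With the length trend also taken out they were 19 and 25, where 16.7% and 16.8% of all genes were higher. Of 17 genes of the TCA cycle and pyruvate dehydrogenase, 5 were higher and 3 lower in untreated Sin3Bsg1 (29.4% and 17.6%, against 15.1% and 16.0% of all genes). Cs, citrate synthase, was lower in Sin3Bsg1 without and with IFNγ (log2 -0.19 and -0.22, calls lost under 4 of 14 and 1 of 16 alternatives) and higher with IFNγ in both genotypes (0.22 and 0.20). Without the replicate 1 libraries the values with IFNγ were -0.15, 0.16 and 0.18.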
